A study of Mus musculus with 20 samples.

Results

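Kidney tumours grown from the MSRT1 cell line differed widely in the RNA of 4 genes of mature kidney tubule, and the 6 tumours with the most were compared here with the 6 with the least. Of 70 other genes from kidney lists that could be tested, 20 were higher in the first set, against 0.762% of all 11817 tested genes. Of these 20, 19 fell under the level required for testing in at least 1 tumour of the second set. Such a gene enters the test through other tumours, so the count is no independent evidence. Some kidney list genes that were abundant in both sets, such as Pax8 and Napsa, overlapped between them. The study sequenced RNA of 20 tumours, 1 library per mouse, and MSRT1 is labelled a line of renal medullary carcinoma, an aggressive kidney cancer. A tubule score was taken in each library as the mean log2 TPM of Slc34a1, Lrp2, Miox and Umod minus the library's median log2 TPM over genes that reach 1 TPM in 5 or more of the 20 libraries. TPM, the usual unit of transcript abundance, is a share of all transcripts of a library corrected for transcript length, so levels of different genes can be set side by side. GYY_PD1 replicates 1 and 4 were left out, the other 18 libraries were ranked, and the members of both sets were thus chosen by the measured levels of these 4 genes. The 6 highest are called tubule-rich and the 6 lowest tubule-poor. The treatments crossed GYY4137, a slow-releasing donor of hydrogen sulfide, or vehicle with an antibody against the checkpoint receptor PD1 or control IgG, 5 mice in each of the 4 groups GYY_PD1, GYY_IgG, Veh_PD1 and Veh_IgG. All 20 mice carried the same tumour line, given in the labels as biological replicates, and what is known of the animals here is their treatment only. The tubule-rich set held 2 GYY_PD1, 1 GYY_IgG, 1 Veh_PD1 and 2 Veh_IgG tumours, and the tubule-poor set held 1 GYY_PD1, 2 GYY_IgG, no Veh_PD1 and 3 Veh_IgG tumours.

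The kidney tubule is the epithelium that turns the filtrate of the glomerulus into urine. Its proximal part takes back most of the filtered phosphate, glucose, amino acids and protein, makes glucose, and burns fatty acids. The loop of Henle, the distal convoluted tubule and the collecting duct then recover salt and water and set the final acid and potassium content. In these bulk libraries fewer cells of a type and less RNA per cell cannot be told apart.

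None of 5 general measures of the libraries passed an exact permutation test of the sets over the 12 libraries, which can give no p under 0.00216. Genes at 1 TPM or more numbered 14454 ± 541 in tubule-rich and 14166 ± 674 in tubule-poor libraries (mean and SD, n = 6 each, exact permutation p = 0.481). The share of TPM from nuclear protein-coding genes was 45.4% ± 9.34 in tubule-rich and 48.3% ± 11.6 in tubule-poor libraries (exact two-sided permutation p = 0.649, adjusted over 5 measures p = 0.812). The share held by coding models with provisional names, whose nature was not tested, ran from 1.69 to 40.9% in tubule-rich and from 4.07 to 54.0% in tubule-poor libraries (exact permutation p = 0.894). The number of reads behind each library is unknown, because TPM do not keep it. Both libraries left out had fewer genes at 1 TPM or more, 6659 and 8198, than any other.

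The 4 score genes chose the libraries and are therefore described without a test. Slc34a1, the phosphate transporter of the proximal brush border, ran from 2.28 to 13.8 TPM with a median of 6.77 in tubule-rich libraries, against 0.0452 to 0.0883 TPM with a median of 0.0514 in tubule-poor libraries. Lrp2, megalin, the receptor that takes up filtered protein, had 1.15 to 7.73 TPM (median 5.59) in tubule-rich libraries and 0.176 to 0.540 TPM (median 0.259) in tubule-poor libraries. Neither gene overlapped between the sets. Miox, which degrades inositol in the proximal tubule, had at least 0.989 TPM (median 5.54) in tubule-rich libraries and 0 to 0.460 TPM (median 0.116) in tubule-poor libraries. Umod, uromodulin, the main urinary protein and a product of the loop of Henle, had 7.28 to 58.4 TPM in tubule-rich libraries and 0 to 0.124 TPM (median 0.0408) in tubule-poor libraries. Miox was listed at 0 in 1 tubule-poor library and Umod in 2. The score spanned 9.14 log2 units, from 0.84 in Veh_IgG replicate 4 to -8.30 in Veh_IgG replicate 1, so that both ends lie in the group given vehicle and control antibody. The lowest tubule-rich score was -1.47, in Veh_PD1 replicate 2, with the next library at -2.25, and the highest tubule-poor score was -4.84, in GYY_PD1 replicate 5, with the next library at -4.71. The boundary of the tubule-poor set is thus not a gap in the ranking.

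**Figure D1:**
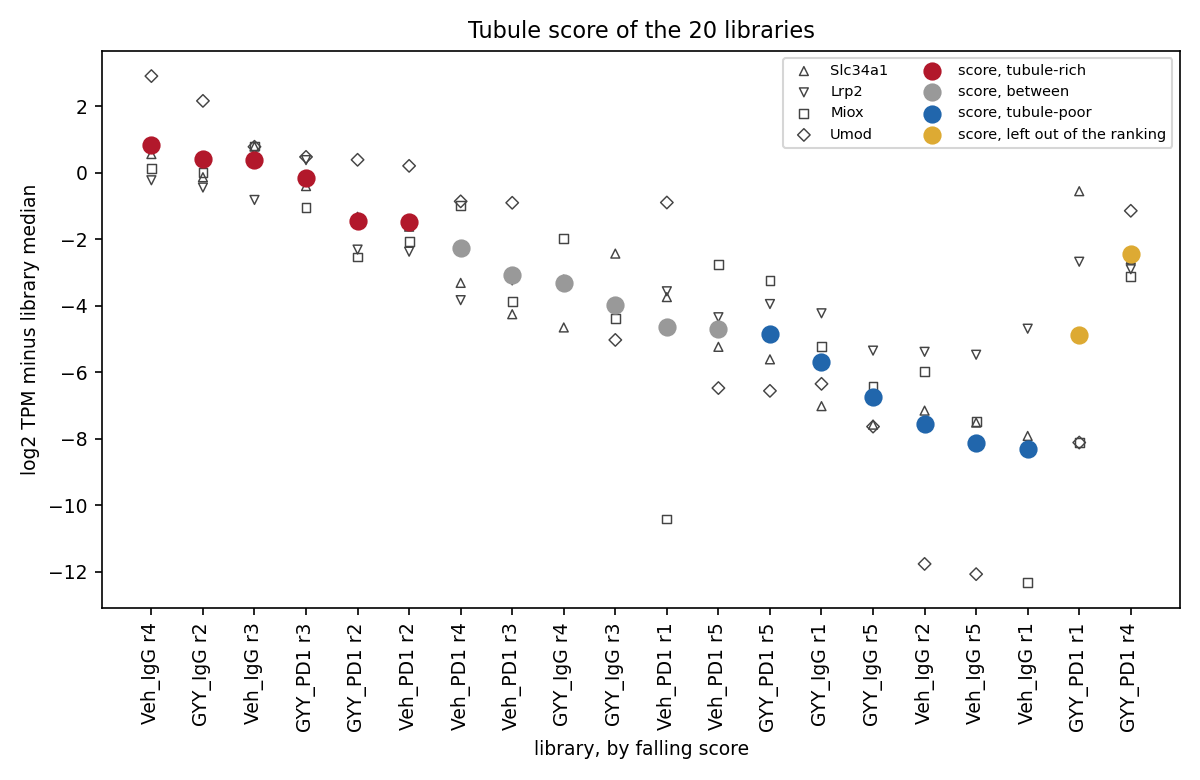
Tubule score of each of the 20 libraries (filled circles) and the 4 genes it averages (open symbols), in log2 TPM minus the library median, ordered by score with the 2 libraries left out at the right. The 6 tubule-rich libraries lie between -1.47 and 0.84 and the 6 tubule-poor libraries between -8.30 and -4.84, and the 6 libraries between them form a continuous slope.

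Apart from the score genes, 11817 protein-coding genes were compared, as log2 TPM minus the library median. In tubule-rich libraries 90 genes were higher, 0.762% of those tested, and 12 were lower, 0.102% (limma, Benjamini-Hochberg adjusted p under 0.05). Every tubule-rich library lay above every tubule-poor one for 116 genes, 0.982%, and below it for 35 genes, 0.296%. These p-values concern the association of a gene with the score that chose the libraries, not with a treatment, and the libraries are the only replicates. The 90 higher genes summed to between 234 and 1088 TPM in tubule-rich libraries, against 49.3 to 92.8 TPM in tubule-poor libraries. The 12 lower genes summed to between 262 and 659 TPM in tubule-rich libraries, against 345 to 877 TPM in tubule-poor libraries, where library GYY_PD1 replicate 5 was lowest. Of the 90 higher genes, 20 were in the 8 kidney lists used here and 23 in any of the 37 lists. With treatment as a term the counts were 69 higher and 2 lower. The median of all tested genes was -0.03 relative to the library median and -0.17 on the deposited scale, and differences are given relative to the library median.

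**Figure D2:**
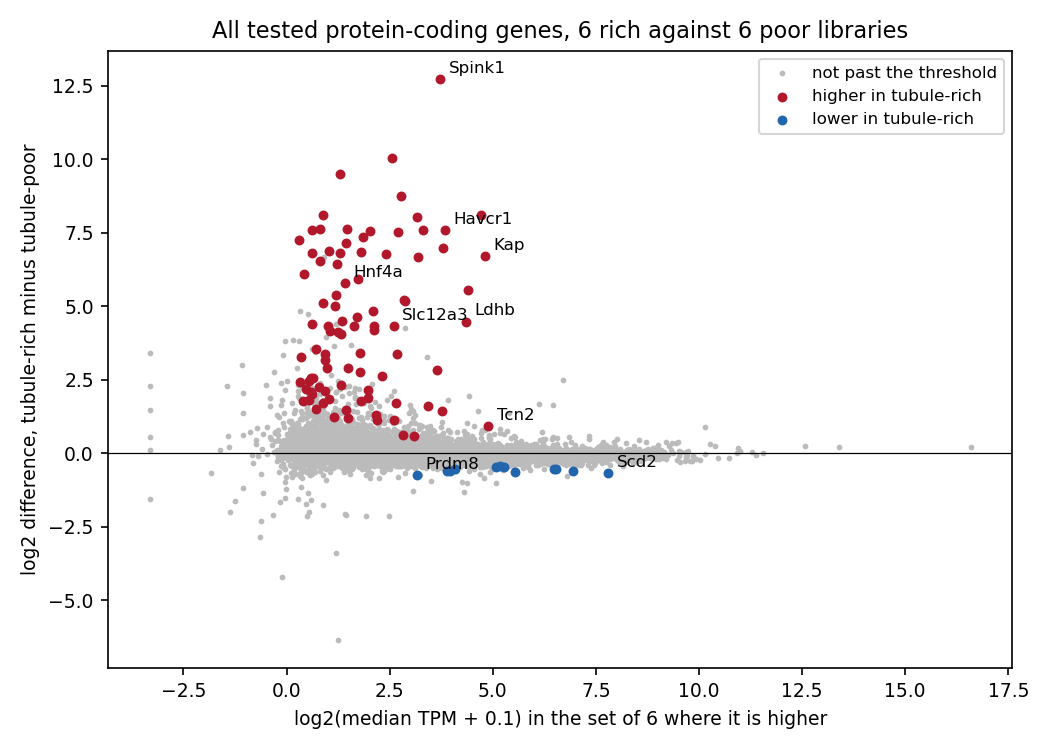
Difference between the 6 tubule-rich and the 6 tubule-poor libraries (log2 TPM minus library median) of the 11817 tested protein-coding genes, against the log2 of their median TPM plus 0.1 in the set where they are higher. The 90 genes higher in tubule-rich libraries (red) reach much larger differences than the 12 lower ones (blue), which lie between -0.76 and -0.44.

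The genes with the largest differences had several or more TPM in tubule-rich libraries and nothing or nearly nothing in tubule-poor libraries. Such a gene reaches 1 TPM in 5 libraries, as testing required, only through libraries outside the tubule-poor set. Its difference is therefore no independent evidence. Spink1, a secreted inhibitor of trypsin, led these genes with 4.08 to 31.5 TPM (median 13.2) in tubule-rich libraries and was listed at 0 in all 6 tubule-poor libraries (limma, adjusted p = 2.44e-06). Those 6 values are the stored value for 0 TPM minus each library's median, so the size of the difference and its p rest on that stored value. The libraries between the sets had 0.273 to 6.52 TPM of Spink1, so no ranked library outside the tubule-poor set was without it. Aadat, an enzyme of lysine and kynurenine breakdown, had 2.75 to 18.7 TPM (median 5.79) in tubule-rich libraries and at most 0.158 TPM in tubule-poor libraries, 4 of which were at 0 (adjusted p = 0.00141). Defb1, an antimicrobial peptide of tubular epithelium, had 1.12 to 12.7 TPM (median 6.80) in tubule-rich libraries and at most 0.123 TPM in tubule-poor libraries (adjusted p = 0.00132). Cltrn, collectrin, a partner of brush border amino acid transporters, had 3.21 to 26.0 TPM (median 8.82) in tubule-rich libraries and at most 0.197 TPM in tubule-poor libraries (adjusted p = 0.00180). None of these genes overlapped between the sets, and each passed the threshold in all 12 fits that left 1 library out. Differences on the log2(TPM + 0.1) scale, which understates the change of such low genes, were 5.96 ± 0.59 for Aadat, 5.49 ± 0.43 for Defb1 and 5.71 ± 0.44 for Cltrn (SE).

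Slc7a12, an amino acid transporter, and Them7 were lower in level and less steady. Slc7a12 had 0.850 to 6.03 TPM (median 2.36) in tubule-rich libraries and at most 0.0233 TPM in tubule-poor libraries, 5 of which were at 0 (adjusted p = 0.00556). Without Veh_IgG replicate 4, GYY_IgG replicate 2 or GYY_PD1 replicate 3 its adjusted p ran from 0.0551 to 0.0772. Them7 had 1.19 to 5.98 TPM (median 1.73) in tubule-rich libraries and at most 0.163 TPM in tubule-poor libraries (adjusted p = 0.0164). Without any 1 of those 3 libraries or Veh_IgG replicate 3 its adjusted p ran from 0.0505 to 0.0921.

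Proximal tubule factors of the HNF family are known to bind and drive many genes of this segment, and the promoters of the higher genes were therefore searched for the letters of an HNF1 site. RefSeq promoters, 250 bases before to 50 after the start (GRCm38.p6), were at hand for 70 of the 90 higher genes, 8 of the 12 lower genes and 9309 tested and score genes in all. The letters GTTAAT, on either strand, was in 11 of the 70 (15.7%) and in none of the 8 lower genes, against 5.23% of all 9309. Among the score genes Miox, Slc34a1 and Umod held it, but these genes chose the libraries and are no result of the comparison. The longer site, in which GTTAAT is followed after any 2 bases by TTA, contains the shorter one and was in 3 of the 70 (4.29%) against 0.204% of all. Those 3 genes are Cltrn, Gc, the vitamin D binding protein, and Hnf4a, the nuclear receptor that sets proximal tubule identity, of which Gc and Hnf4a were picked out after their values were seen. Their promoters are printed 5′ to 3′ on the strand of the gene to show where the site lies, with its letters in capitals. Cltrn is at chrX:164089937-164090236 (plus strand), Gc at chr5:89457849-89458148 (minus strand) and Hnf4a at chr2:163546905-163547204 (plus strand), where the site reads on the other strand.
Cltrn: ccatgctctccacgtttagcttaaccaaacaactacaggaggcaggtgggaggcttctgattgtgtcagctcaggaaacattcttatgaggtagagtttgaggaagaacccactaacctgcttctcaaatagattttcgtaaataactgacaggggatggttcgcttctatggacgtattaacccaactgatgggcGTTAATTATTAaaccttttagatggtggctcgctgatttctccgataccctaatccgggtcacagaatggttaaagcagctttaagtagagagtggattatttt
Gc: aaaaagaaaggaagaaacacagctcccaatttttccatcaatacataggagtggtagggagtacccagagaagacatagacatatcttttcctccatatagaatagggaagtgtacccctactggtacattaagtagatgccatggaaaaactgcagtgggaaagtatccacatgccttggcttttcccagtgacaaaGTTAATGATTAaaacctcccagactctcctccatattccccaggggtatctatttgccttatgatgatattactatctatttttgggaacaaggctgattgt
Hnf4a: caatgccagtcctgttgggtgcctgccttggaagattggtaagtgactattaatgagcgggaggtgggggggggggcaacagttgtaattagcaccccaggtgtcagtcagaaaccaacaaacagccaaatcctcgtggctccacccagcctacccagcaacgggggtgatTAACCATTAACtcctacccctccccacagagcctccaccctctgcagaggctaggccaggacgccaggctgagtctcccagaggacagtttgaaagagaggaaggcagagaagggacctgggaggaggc
Counted from the start of the gene, the site begins at base -54 in Cltrn, -52 in Gc and -79 in Hnf4a. A match of letters is not a measured binding site, and whether HNF factors drive these genes here was not tested. The 9309 promoters were not matched to the 70 in base content or in how widely their genes are expressed. Gc had 1.03 to 14.9 TPM (median 2.29) in tubule-rich libraries and 0.127 to 0.367 TPM (median 0.203) in tubule-poor libraries, with no overlap.

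The kidney lists name 127 genes of 8 kinds, chosen to measure the same tissue as the score, so they are given as values and counts. Of the 127, 70 passed the filter of 1 TPM in 5 libraries and 20 of these were past the threshold, all higher in tubule-rich libraries. Of all tested genes 0.762% were higher. A gene that reaches 1 TPM only in tubule-rich libraries passes the filter because of them, and its difference is no independent evidence. Of the 57 genes under the filter, 13 lay higher in every tubule-rich than in every tubule-poor library and none lower. Among all 7933 coding genes under the filter with a value above 0 in the 12 libraries, 1.74% lay higher in this way and 0.0% lower. Cubn, cubilin, the partner of megalin, is one of the 13, with 0.549 to 3.32 TPM in tubule-rich libraries and 0.129 to 0.404 TPM (median 0.211) in tubule-poor libraries.

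Of the proximal tubule transporter and uptake genes, 8 of 16 tested were past the threshold, all higher, with a median difference of 3.92 on the log2 scale over the 16. With a filter of 5 TPM in 5 libraries, which leaves 4 of the 16, the median was -0.18. The summed level of the whole list was 84.1 to 246 TPM (median 153) in tubule-rich and 63.9 to 171 TPM (median 145) in tubule-poor libraries, and overlapped. Slc5a12, a lactate transporter of the early proximal tubule, had 0.999 to 7.46 TPM (median 2.65) in tubule-rich libraries and at most 0.0711 TPM in tubule-poor libraries. Slc27a2, which takes up and activates fatty acids, had 9.70 to 47.1 TPM (median 13.8) in tubule-rich libraries and 0.0345 to 0.582 TPM (median 0.160) in tubule-poor libraries. Slc13a1, the sulfate transporter, had 1.35 to 21.1 TPM (median 5.23) in tubule-rich libraries and at most 0.409 TPM in tubule-poor libraries. The sets did not overlap for any of the 3. Slc27a2 and Slc13a1, like Kap, Slc12a1, Slc12a3, Fbp1, Pck1, Ren1, Klk1 and Ldhb further on and Cubn and Hnf4a above, were picked out after their values were seen.

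Genes of proximal tubule metabolism gave 8 of 20 past the threshold, all higher, with a median difference of 2.11. Kap, the androgen-regulated protein of the mouse proximal tubule, had 9.67 to 59.4 TPM (median 27.8) in tubule-rich libraries and 0.0889 to 1.79 TPM (median 0.212) in tubule-poor libraries. The sets did not overlap. Fbp1, fructose-bisphosphatase, was past the threshold with 1.95 to 12.8 TPM (median 7.05) in tubule-rich libraries and at most 0.620 TPM in tubule-poor libraries. Without any 1 of Veh_IgG replicates 1, 3 and 4, GYY_IgG replicate 2 or GYY_PD1 replicate 3 its adjusted p ran from 0.0626 to 0.0921. Pck1, the other committed enzyme of glucose production, had 1.96 to 58.8 TPM (median 10.5) in tubule-rich and 0.381 to 2.17 TPM (median 1.09) in tubule-poor libraries and missed the threshold. Its TPM overlapped, while relative to the library median the sets did not. Fbp1 and Pck1 also stand in the list of gluconeogenesis and ammonia production, where Fbp1 was the only one of 11 tested past the threshold and the median difference was 0.02.

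Later segments of the nephron were represented too. In the loop of Henle 2 of 7 tested genes were past the threshold, both higher, with a median difference of 2.34. With the filter of 5 TPM, which leaves 2 of the 7, the median was -0.41, and the summed level of the list was 50.6 to 111 TPM (median 88.7) in tubule-rich and 53.2 to 149 TPM (median 112) in tubule-poor libraries. Kcnj1, the potassium channel ROMK, had 0.417 to 4.59 TPM (median 1.64) in tubule-rich libraries and at most 0.0389 TPM in tubule-poor libraries, and lost the call without Veh_IgG replicate 4, GYY_IgG replicate 2 or Veh_IgG replicate 3, with adjusted p of 0.0564 to 0.0724. Slc12a1, the salt transporter that loop diuretics block, had 1.02 to 7.52 TPM (median 1.74) in tubule-rich libraries and 0.0133 to 0.546 TPM (median 0.0643) in tubule-poor libraries. Egf, made in the loop and distal tubule, was not past the threshold, with 0.772 to 4.28 TPM (median 2.65) in tubule-rich and 0.651 to 0.963 TPM (median 0.863) in tubule-poor libraries. In the distal convoluted tubule Slc12a3, the thiazide-sensitive salt transporter, was the only one of 8 tested past the threshold, with 2.83 to 13.1 TPM (median 5.95) in tubule-rich and 0.188 to 1.13 TPM (median 0.243) in tubule-poor libraries. The median difference of these 8 was -0.07, and 6 of them had lower means in tubule-rich libraries, against 58.3% of all tested genes. Slc12a1 and Slc12a3 did not overlap between the sets. Ren1, renin of the juxtaglomerular cells beside the glomerulus, was past the threshold with 2.28 to 39.4 TPM (median 9.76) in tubule-rich and at most 0.396 TPM in tubule-poor libraries. Klk1, tissue kallikrein of the connecting tubule, was past it with 2.78 to 40.6 TPM (median 21.1) in tubule-rich and 0.147 to 1.05 TPM (median 0.238) in tubule-poor libraries. Ldhb, the lactate dehydrogenase subunit of oxidative tissues, was past it with 8.60 to 82.7 TPM (median 20.4) in tubule-rich and 0.635 to 2.21 TPM (median 1.21) in tubule-poor libraries. The sets did not overlap for these 3 genes either.

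Many genes of the kidney lists were present in the tubule-poor tumours too. Of the 34 kidney list genes with at least 1 TPM in all 6 tubule-poor libraries, 1 was past the threshold, and their median difference was -0.05. That gene was Ass1, argininosuccinate synthase, with 5.96 to 17.4 TPM (median 13.6) in tubule-rich and 3.33 to 5.53 TPM (median 4.90) in tubule-poor libraries. Ass1 lost the call in 9 of the 12 fits that left 1 library out, of all 5 Veh_IgG replicates, GYY_IgG replicates 1, 2 and 5 and GYY_PD1 replicate 3, with adjusted p of 0.0832 to 0.123. Its sets overlapped relative to the library median. Of the 36 tested kidney list genes under 1 TPM in at least 1 tubule-poor library, 19 were past the threshold, and their median difference was 4.01. Over all tested genes the same split gave 0.0770% higher and 0.116% lower of the 10390 genes at or above 1 TPM in all tubule-poor libraries, and 5.75% higher of the 1427 others. The split uses the tubule-poor values that also enter the difference, and a gene low there passes the filter only where it is high elsewhere, so the contrast between the parts of the split is set by its construction and is no result.

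Of 15 listed kidney transcription factors 6 were tested, with a median difference of 0.01. Among them Pax8, Tfcp2l1 and Pax2 were at a like level in both sets. Of those under the filter, Esrrg lay higher in every tubule-rich than in every tubule-poor library. Pax8, which specifies kidney epithelium, had 18.6 to 59.7 TPM (median 46.0) in tubule-rich and 17.8 to 59.8 TPM (median 44.3) in tubule-poor libraries. The sets overlapped over nearly the whole range of Pax8. Tfcp2l1, a factor of the distal nephron, had a median of 26.1 TPM in tubule-rich and 26.6 TPM in tubule-poor libraries, and Pax2 had medians of 5.98 and 6.34 TPM in the same order. Hnf4a was the only one of the 6 tested kidney transcription factors past the threshold, with 1.23 to 7.25 TPM (median 2.56) in tubule-rich and 0.0114 to 0.285 TPM (median 0.0573) in tubule-poor libraries, with no overlap.

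Several differentiation genes were abundant in both sets as well. Fxyd2, the gamma subunit of the sodium pump, had 110.4 to 342 TPM (median 259.5) in tubule-rich and 134 to 920.3 TPM (median 338) in tubule-poor libraries. Napsa, a protease of proximal tubule lysosomes, had 36.0 to 58.0 TPM (median 51.2) in tubule-rich and 18.7 to 62.3 TPM (median 42.2) in tubule-poor libraries. Slc17a1, a proximal anion transporter, had 10.1 to 27.7 TPM (median 22.3) in tubule-rich and 10.3 to 40.4 TPM (median 29.8) in tubule-poor libraries. The ranges of these genes overlapped between the sets. Ptger3, a prostaglandin receptor of the thick ascending limb, had 23.8 to 55.7 TPM (median 35.2) in tubule-rich and 29.7 to 87.6 TPM (median 57.6) in tubule-poor libraries and also overlapped. Dab2, the adaptor of megalin uptake, had medians of 68.5 TPM in tubule-rich and 91.6 TPM in tubule-poor libraries, although Lrp2 itself was part of the score and near 0 in the tubule-poor set. Other listed genes that did not pass the threshold were Cyp4b1, Gatm and Pter under proximal metabolism and Aqp1 and Slc22a18 under proximal transport. Mrps6 in the loop list and Wnk1, Trpm7 and Tsc22d2 in the distal convoluted tubule list did not pass either. Whether a listed gene is particular to its segment, or to the kidney, was not tested.

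No tested gene of the collecting duct or the glomerulus was past the threshold. In the collecting duct lists 6 genes were tested, with a median difference of 0.29 in the 4 principal cell genes and 0.37 in the 2 intercalated cell genes. Aqp2, the vasopressin-regulated water channel, had 1.38 to 3.23 TPM (median 2.10) in tubule-rich and 1.36 to 2.71 TPM (median 1.90) in tubule-poor libraries. Gata3, Scnn1a and Hsd11b2 likewise overlapped, and so did Atp6v0d2 and Slc4a1 of the intercalated cells. The 7 podocyte and glomerulus genes had a median difference of 0.20, and Clic5, Synpo and Podxl overlapped between the sets.

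**Figure D3:**
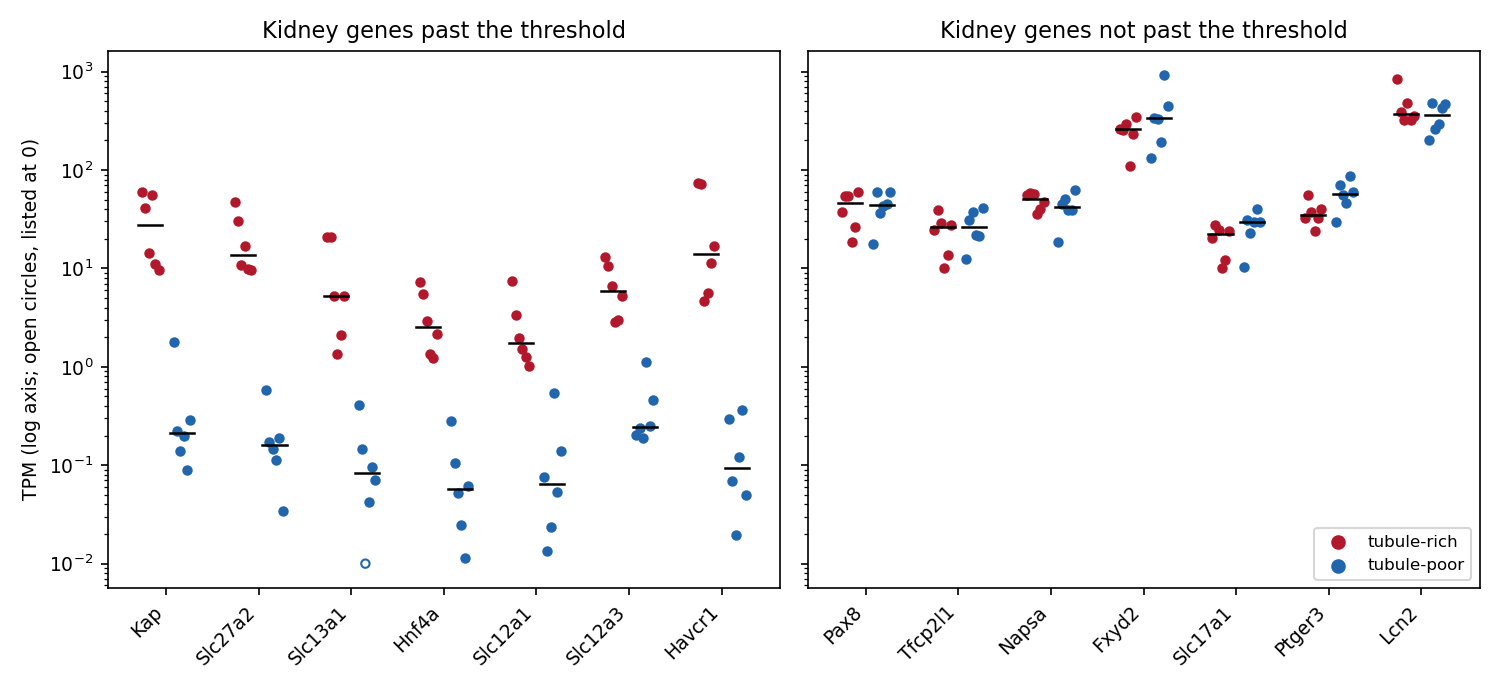
TPM of kidney genes past the threshold (left panel) and not past it (right panel) in each of the 6 tubule-rich (red, left) and 6 tubule-poor (blue, right) libraries on a log axis, with the median of each set as a line and open circles for libraries listed at 0. In the left panel the sets do not overlap, with Kap at 9.67 TPM or more in tubule-rich and at most 1.79 TPM in tubule-poor libraries, and in the right panel they do, with Pax8 medians of 46.0 TPM in tubule-rich and 44.3 TPM in tubule-poor libraries.

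Among markers of tubule injury, 1 of 11 tested was past the threshold, and the median difference of the list was 0.31. Havcr1, kidney injury molecule 1, which proximal cells display after damage, had 4.64 to 73.9 TPM (median 14.1) in tubule-rich and 0.0197 to 0.362 TPM (median 0.0948) in tubule-poor libraries, a log2 difference of 7.60 ± 0.87 (SE, adjusted p = 6.33e-04). The sets did not overlap, and the call held in all 12 fits that left 1 library out. Lcn2, a secreted marker of distal injury, had 319 to 832 TPM (median 373) in tubule-rich and 203 to 482 TPM (median 360.1) in tubule-poor libraries and was not past the threshold (adjusted p = 0.681). Clu and Vcam1 overlapped between the sets in the same way (adjusted p = 0.612 and 0.259).

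Epithelial adhesion genes and keratins gave 2 of 14 past the threshold, both higher, with a median difference of 0.44. Cldn2, the claudin that makes proximal junctions leaky to sodium and water, had 1.72 to 12.7 TPM (median 4.21) in tubule-rich and 0.0360 to 0.459 TPM (median 0.196) in tubule-poor libraries (log2 difference 4.83 ± 0.58, adjusted p = 8.55e-04). Krt7, a keratin of ductal epithelium, had 0.999 to 4.52 TPM (median 1.40) in tubule-rich and 0.209 to 0.461 TPM (median 0.376) in tubule-poor libraries (log2 difference 2.55 ± 0.46, adjusted p = 0.0131). Neither overlapped between the sets. Epcam, with 0.860 to 10.7 TPM (median 2.74) in tubule-rich and 0.325 to 2.17 TPM (median 0.580) in tubule-poor libraries, overlapped and was not past the threshold (adjusted p = 0.239), nor was Cldn7 (adjusted p = 0.207).

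The 12 genes lower in tubule-rich libraries were expressed in both sets and differed by much less than the higher ones. Cholesterol is made from acetyl units through mevalonate, squalene and lanosterol, and SREBP factors switch the enzymes of this path on together when sterol is scarce. Of the 12 genes, 8 encode enzymes of the path. Acat2 joins the first acetyl units, and Mvd and Fdps lead to farnesyl diphosphate. Sqle and Lss turn squalene into lanosterol, and Cyp51, Msmo1 and Sc5d trim lanosterol towards cholesterol. A further pair, Scd2, which puts double bonds into fatty acids, and Stard4, which carries sterol between membranes, are SREBP targets too, and the other 2 are Prdm8, a transcription factor of the PRDM family, and Aldoc, an aldolase. Aldoc and Sc5d lie outside the rule that named the genes and were picked out because the whole count is small.

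Scd2 and Sqle differed most steadily. Scd2 had 76.2 to 186 TPM (median 116) in tubule-rich and 101 to 276 TPM (median 223) in tubule-poor libraries, and relative to the library median 3.79 to 4.14 log2 units in tubule-rich and 4.44 to 4.73 in tubule-poor libraries. It was lower by a log2 difference of -0.67 ± 0.08 (SE, adjusted p = 9.26e-04). Sqle had 41.0 to 107 TPM (median 66.8) in tubule-rich and 50.7 to 149 TPM (median 123) in tubule-poor libraries, with a log2 difference of -0.59 ± 0.09 (adjusted p = 0.00539). Relative to the library median neither gene overlapped between the sets, while their TPM did. Both passed the threshold in all 12 fits that left 1 library out and with treatment as a term, and the other 10 genes lost the call in at least 1 of the 12. None of the 12 passed on the deposited scale, where they differed by -0.90 to -0.58 with adjusted p of 0.379 to 0.961, and none turned to the other sign in any setting run.

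The other lower genes differed by -0.76 to -0.44 log2 units. Prdm8 had 2.89 to 9.79 TPM (median 4.23) in tubule-rich and 4.44 to 12.3 TPM (median 8.89) in tubule-poor libraries (log2 difference -0.76 ± 0.14, adjusted p = 0.0211). Cyp51 had a median of 26.1 TPM in tubule-rich and 46.7 TPM in tubule-poor libraries (-0.64 ± 0.13, adjusted p = 0.0325), and Msmo1 had 52.9 and 92.2 TPM in the same order (-0.55 ± 0.12, adjusted p = 0.0386). Relative to the library median the sets overlapped for Prdm8, Cyp51, Mvd, Lss, Msmo1 and Fdps, and did not for Stard4, Acat2, Sc5d and Aldoc. The letters of a sterol regulatory element, ATCAC followed directly by CCCAC, were on either strand in none of the 8 lower genes with a promoter at hand and in 0.0645% of all 9309, and the CCAAT box was in 6 of the 8 (75.0%) against 43.2% of all. Leaving out 1 library moved the number of lower genes to between 2 and 15. It was 2 without Veh_IgG replicate 4, 3 without GYY_PD1 replicate 3 or Veh_IgG replicate 1, 4 without GYY_PD1 replicate 2, and 5 without Veh_PD1 replicate 2, GYY_IgG replicate 5 or GYY_PD1 replicate 5.

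The wider pathway was counted with 3 lists written after these calls had been seen, so their counts are a description. Of 21 tested enzymes of cholesterol synthesis, 20 were lower in tubule-rich libraries and 8 of those passed the threshold, with a median difference of -0.46. The remaining enzyme had a higher mean in tubule-rich libraries and was not past the threshold. All 15 tested further SREBP targets and regulators had lower means in tubule-rich libraries, 2 of them past the threshold, with a median of -0.32, and of all tested genes 58.3% had lower means. The median of these further genes ran from -0.46 to -0.03 over the 36 settings run. The 9 genes of cholesterol export and storage had a median of -0.04 and none past the threshold. The median of the synthesis list stayed between -0.60 and -0.26 over the 36 settings run.

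**Figure D4:**
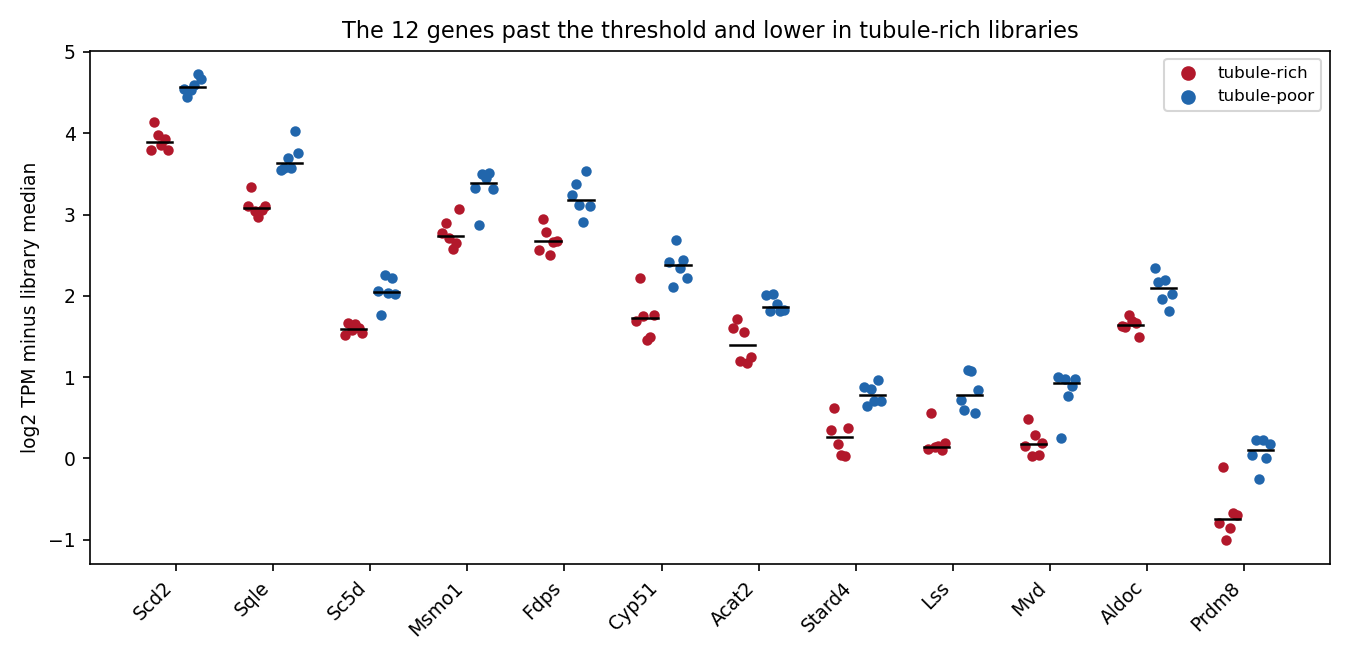
The 12 genes past the threshold and lower in tubule-rich libraries, as log2 TPM minus the library median in each of the 6 tubule-rich (red, left) and 6 tubule-poor (blue, right) libraries, with set medians as lines. The shifts lie between -0.76 and -0.44, with Scd2 at 3.79 to 4.14 in tubule-rich and 4.44 to 4.73 in tubule-poor libraries.

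Apart from the kidney, injury, epithelial, gluconeogenesis and sterol lists no list had a member past the threshold. The lists of neutrophils and of endothelium are given first, and of all tested genes 41.7% had higher means in tubule-rich libraries. All 8 tested neutrophil genes had higher means in tubule-rich libraries, with a median of 1.41, between 0.15 and 2.38 over the 36 settings run, and a summed level over the 12 genes of the list of 89.3 to 562 TPM in tubule-rich and 37.5 to 137 TPM in tubule-poor libraries. S100a8, a calcium-binding protein of neutrophils, had 30.7 to 233 TPM (median 69.6) in tubule-rich and 10.1 to 49.7 TPM (median 25.9) in tubule-poor libraries (log2 difference 1.67 ± 0.51, adjusted p = 0.239). S100a9, Cxcr2 and Mmp8 also overlapped and did not pass (adjusted p = 0.259 to 0.474). In the endothelium list 12 of 13 genes had higher means, with a median of 0.62 and a summed level of 68.6 to 212 TPM in tubule-rich and 47.7 to 149.8 TPM in tubule-poor libraries. Emcn, a surface mucin of venous and glomerular capillaries, had 9.15 to 35.2 TPM (median 24.8) in tubule-rich and 2.09 to 19.9 TPM (median 11.2) in tubule-poor libraries (1.44 ± 0.39, adjusted p = 0.155). Egfl7, Tek and Ehd3 were near it at adjusted p of 0.0856, 0.123 and 0.123. The part of these cell types in the differences of other genes was not tested.

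The median was 0.64 over 8 adipocyte genes, -1.23 over 3 skeletal muscle genes and 0.84 for the 1 liver gene tested, and each of these turned sign in at least 3 of the settings run. The immune and tumour lists had no gene past the threshold. Of 19 interferon gamma response genes, 18 had higher means in tubule-rich libraries, with a median of 0.50 and none past the threshold. Gbp4, Gbp5, Irf8 and Socs1, the nearest to it, had adjusted p of 0.457 to 0.688. The median of the interferon gamma list ran from 0.10, with library weights, to 2.01, with the replicate block. Its highest means in tubule-rich libraries were in GYY_PD1 replicates 2 and 3, at 1.75 and 0.91. Within Veh_IgG its means overlapped between the sets. All 17 mitosis genes had lower means in tubule-rich libraries, with a median of -0.24, but none passed, and the median had the other sign in 1 of the 36 settings run. Ccnb2, a cyclin of mitotic entry, had 10.6 to 36.3 TPM (median 23.6) in tubule-rich and 13.7 to 39.3 TPM (median 35.7) in tubule-poor libraries (adjusted p = 0.595), and Nusap1, Bub1 and Aurka had adjusted p of 0.627 to 0.698. The 9 genes of sulfide production and oxidation, which bear on the sulfide donor, had a median of -0.04. Selenbp1, Ethe1, Tst and Mpst were at adjusted p of 0.518 to 0.877. Smarcb1, the chromatin remodelling subunit whose loss defines renal medullary carcinoma in people, had 16.4 to 41.0 TPM (median 24.5) in tubule-rich and 17.4 to 46.6 TPM (median 34.3) in tubule-poor libraries (adjusted p = 0.705). The cells that Smarcb1 RNA came from were not tested.

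**Figure D5:**
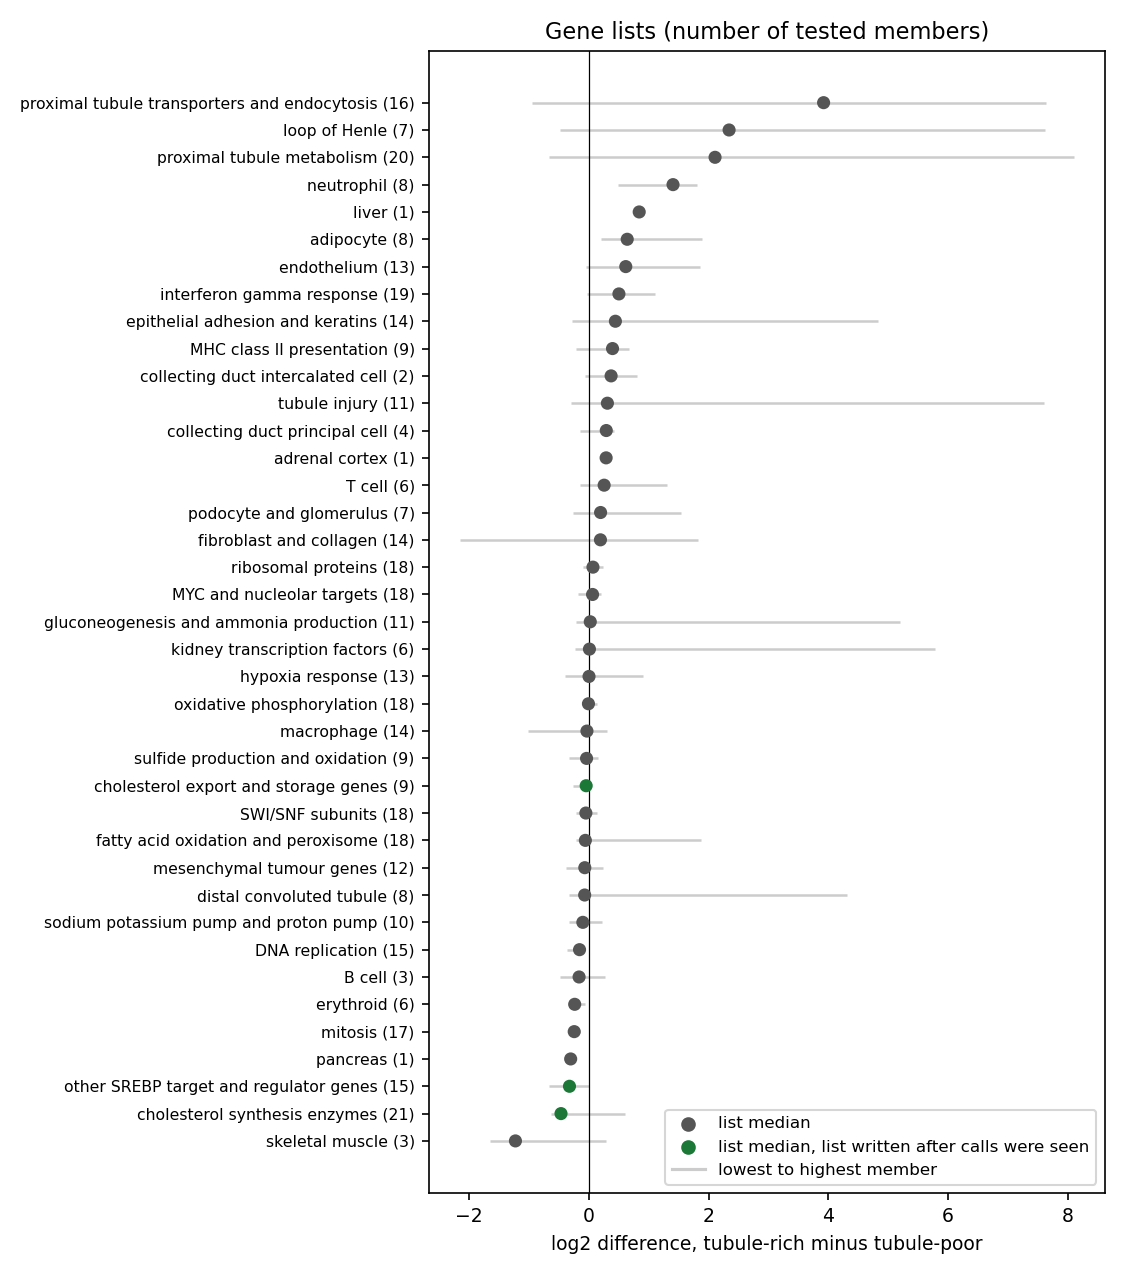
Median log2 difference, tubule-rich minus tubule-poor, of each gene list with at least 1 tested member, with a line from the lowest to the highest member and the number of tested members in brackets. The lists of proximal tubule transport (3.92), the loop of Henle (2.34) and proximal tubule metabolism (2.11) stand furthest right, with medians of -0.18, -0.41 and 0.52 under a filter of 5 TPM, and the cholesterol synthesis list (green, written after the calls were seen) has a median of -0.46.

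The 6 libraries between the sets entered neither of them and give a further look at the same genes. They are Veh_PD1 replicates 1, 3, 4 and 5 and GYY_IgG replicates 3 and 4, with provisional coding models at 12.5 to 58.6% of TPM. The 3 with the higher scores had higher means than the 3 with the lower scores for 64 of the 90 higher genes (71.1%), against 56.1% of all tested genes. They had lower means for all 12 of the lower genes, against 43.9% of all tested genes. By library the mean of the 12 did not fall steadily as the score rose. It was highest in Veh_PD1 replicate 4, the highest-scoring of the 6, at 1.99 log2 units over the library median. It was lowest in GYY_IgG replicate 4, at 0.91. The mitosis list went the other way here, with higher means in the 3 higher-scoring libraries for all 17 genes and a median of 0.38. So did the neutrophil list, with lower means in them for 7 genes, a higher mean for 1 and a median of -0.43. The neutrophil list mean ran from 0.76 to 1.58 in these 6 libraries and from -1.18 to 1.34 in tubule-rich ones. With 3 libraries on each side no test was made.

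The sets can also be set side by side within 1 treatment group, since Veh_IgG holds 2 tubule-rich and 3 tubule-poor tumours. Within it the 2 tubule-rich libraries lay above the 3 tubule-poor ones for all 90 higher genes, against 8.06% of all tested genes, and below them for all 12 lower genes, against 8.39%. These are 5 of the 12 libraries that gave the calls, so the counts describe them and do not add evidence. With the libraries left out included, the scores of the 5 tumours ran from -4.87 to -0.15 in GYY_PD1, from -6.75 to 0.39 in GYY_IgG, from -4.71 to -1.47 in Veh_PD1 and from -8.30 to 0.84 in Veh_IgG, so each group overlapped each other group.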

How the data were processed

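RNA of 20 tumours was extracted with QIAzol and libraries were made with Nextera XT from 1.0 ug of it each, per the labels' protocols. The deposited values are log2 TPM per gene made by the authors, with 0 TPM stored as -8.879. The submitters' processing notes list the build mm10 and, as tools, Salmon 0.14.1, HTSeq 0.11.0, fastp and cutadapt; which of them gave the TPM is not given in the sources used here. Read depth is not kept by TPM, and nothing in the labels ties a mouse to a batch.

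Of 34234 genes, 15422 reached 1 TPM in 5 libraries, 11821 of them protein-coding, and 11817 without the score genes were tested. The library median was subtracted, and limma 3.58.1 (R 4.3.3; lmFit, and eBayes with a trend) compared the sets on 10 residual degrees of freedom, with Benjamini-Hochberg adjustment over all 11817 genes and a threshold of 0.05. The limma step was checked on simulated data, drawn as independent values for genes above 0 in every library compared. Genes listed at 0 in a library, and differences as large as those of the leading genes, were outside that check. Every adjusted p in the text is limma's unless another test is named. Summaries, exact tests and plots used Python 3.11.15, pandas 2.3.3, SciPy 1.17.1 and matplotlib 3.10.9. Promoters are RefSeq's (GRCm38.p6).

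The members and lists were chosen with earlier results of these data known, and the 3 cholesterol lists after the called genes had been seen. Genes were named by rule: the score genes, the 10 largest differences in each direction among genes past the threshold with a median of 1 TPM or more in the higher set and a settled name, up to 4 members of each list (the most abundant for kidney lists, the smallest p for others) and Smarcb1. Alternatives changed the scaling, the filter on low values, the size of the sets, the score, the covariates and the fit, and left out each library. Some items that the rule names are not reported here.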

Additional observations from a re-analysis of the deposited data

Results flagged for a closer look

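In each set of 6 the gap of the highest or lowest library to its neighbour was compared with Dixon's 95% critical value, in 252 groups of values. Chance flags about 1 in 20 groups, and 22 stood out, 7 in tubule-rich and 15 in tubule-poor sets. Values are log2 TPM minus the library median unless a percent is given.

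Among tubule-rich libraries GYY_IgG replicate 2 was apart for Lss at 0.56 and Sqle at 3.34, both lower genes. GYY_PD1 replicate 3 was apart for Egfl7 at 1.58, for the mean of the mesenchymal tumour genes at 2.87 and for the mean of the cholesterol export and storage genes at 1.88. GYY_PD1 replicate 2 was apart for Emcn at 0.67, and Veh_IgG replicate 4 for the mean of the tubule injury genes at 3.87.

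Among tubule-poor libraries Veh_IgG replicate 2 was apart for Pter at -1.22, Emcn at -1.82, Smarcb1 at 1.40, the mean of the intercalated cell genes at -1.42 and the mean of the endothelium genes at -1.87. GYY_IgG replicate 1 was apart for Mvd at 0.25, Msmo1 at 2.87 and Aqp1 at -2.11, and GYY_IgG replicate 5 for Slc7a12 at -8.71 and Lcn2 at 4.75. Veh_IgG replicate 5 was apart for Fxyd2 at 6.65 and Podxl at -1.58, and Veh_IgG replicate 1 for Synpo at 1.15. GYY_PD1 replicate 5 was apart for the mean of the erythroid genes at -2.35 and for the share of TPM from nuclear protein-coding genes at 70.3%.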

How the results depend on the processing

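Against 90 genes higher in tubule-rich libraries there were 10 with a filter of 5 TPM, 222 with no filter, 24 with the replicate block, 140 with the coding share as a covariate, 24 with the 9 highest against the 9 lowest libraries, 43 with the score without Slc34a1 or without Umod, 27 with GYY_PD1 replicates 1 and 4 in the ranking, and 163 with library weights. Against 12 lower genes there were 4 on the deposited scale, 1 when rescaled to coding genes, 5 when rescaled to named coding genes, 2 with a filter of 5 TPM, 2 with treatment as a term, 1 with the replicate block, 21 with the coding share as a covariate, 1 with 9 against 9, 3 as a slope on the score, 2 as a slope with treatment, 0 with the score without Slc34a1 or without Umod or with the 2 left-out libraries in the ranking, 6 without the trend, 65 with library weights, 3 without libraries at 20% or more provisional coding TPM, and 0 at a log2 difference of at least 1. Of the 12, none was among the lower genes on the deposited scale, when rescaled to coding genes, with the replicate block or as a slope with treatment; of the 90, 76 were among the 115 higher genes on the deposited scale. The cause of these shifts was not tested. Leaving out 1 library gave 57 to 93 higher genes, lowest without Veh_IgG replicate 4, and 2 to 15 lower genes. Of the 90, 55 were past the threshold in all 12 of these fits, and of the 12, 2. The difference in coding share, -2.89 percentage points, was 4.59 with 4 against 4 libraries, and ran from -5.84 to 1.51 when 1 library was left out, positive without GYY_PD1 replicate 5. At an unadjusted p under 0.05 there were 998 genes.

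Replicate numbers do not pair these mice: same-numbered libraries correlated at -0.32 to 0.34 (30 pairs, 9 over 0.1), and 5 of 20 libraries correlated best with their own number. These are not correlations of the levels themselves, which were far closer. On the levels, each of the 18 ranked libraries had a median Spearman correlation of at least 0.854 with the others. Only number 2 occurs in both sets, in 3 tubule-rich and 1 tubule-poor libraries, so the contrast of the replicate block rests on it. Of its 24 higher genes 6 were among the 90, and list medians were 0.58 for the loop of Henle, 0.15 for neutrophils, 0.57 for mitosis and -0.03 for the further SREBP genes.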
